A study of Mus musculus with 6 samples.

Results

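The genes described here are 29 genes of cholesterol synthesis, uptake, transport, efflux and storage, measured in AML12 cells with and without a static magnetic field. They were chosen by name for their place in sterol metabolism, with earlier results of these data known. All 29 were found among the 23886 Ensembl gene identifiers of the expression files. AML12 is a line of mouse hepatocytes, established from a mouse that carried a human transforming growth factor alpha transgene, and the series calls the cells wild type. Poly(A)-captured RNA was sequenced in 2 groups of 3 libraries: Control 2, 3 and 4, which had no treatment, and SMF 1, 2 and 3, from cells kept under a magnetic field that is constant over time (SMF, for static magnetic field). The sources used here do not give the field strength, the exposure time or the medium, which sets how much lipoprotein cholesterol the cells can take up. Nothing in the labels says that the libraries of a group came from separate cultures, so p-values measure only the spread between these libraries, which may be technical.

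Cholesterol is built from acetyl-CoA through mevalonate, isoprenoid units and squalene, which is closed into the sterol ring and then trimmed and rearranged into cholesterol. The transcription factor SREBP2 drives nearly all of these enzymes: it is escorted from the endoplasmic reticulum by SCAP when sterols are scarce and held there by the INSIG proteins when they are plentiful. Cholesterol that arrives in lipoproteins leaves the lysosome through NPC2 and NPC1, surplus is exported by ABCA1 and ABCG1 under the oxysterol-activated receptors LXR, or esterified by SOAT enzymes. The liver is the main organ of this traffic in the body.

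Between 15514530 and 18200516 reads per library stood behind the values, recovered from the whole-read steps of the FPKM (fragments scaled to gene length and to the total of the library) and the ranges of both groups overlap. Across the 11114 genes tested, libraries of 1 group correlated at 0.991 to 0.993 and libraries of different groups at 0.986 to 0.991 on log2(FPKM + 1), a correlation across genes, which are not independent replicates. The hepatocyte markers Alb, Trf and Hnf4a were present at 26.3 to 34.1, 63.8 to 75.0 and 87.0 to 95.5 FPKM over all libraries, while Cps1, the urea cycle enzyme of mature hepatocytes, lay between 0 and 0.01 and Serpina1a between 0.16 and 0.47. The bile duct keratins Krt19 and Krt7 were at 1024 to 1163 and 58.8 to 65.2 FPKM, with Epcam between 0 and 0.03. Endothelial and stellate cell markers reached at most 0.17 FPKM, apart from Col1a1 at 0.81 to 1.18, and the macrophage markers Cd68 and Ptprc lay at 2.05 to 3.08 and 0 to 0.02. In bulk RNA, fewer expressing cells and less RNA per cell cannot be told apart.

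Most of the pathway was expressed, and the exporters Abca1 and Abcg1 were not. The isomerase Ebp had the highest level, at 134.6 to 142.3 FPKM in SMF libraries, followed by Srebf2, which encodes SREBP2, at 98.9 to 99.8 in the same libraries. Sqle, Cyp51, Nsdhl, Npc2, Hmgcs1 and Mvd came next, each between 36.1 and 56.8 FPKM in every library. At the low end of the synthesis enzymes stood Idi1, at 3.70 to 5.57, and Fdps, at 2.53 to 3.03. FPKM are scaled to gene length, here all annotated exon bases of a gene, which can exceed those of its expressed transcripts. Levels of different genes can therefore be set beside each other only roughly. Fdps, the synthase of farnesyl diphosphate, shares 26.7% of its exon bases with a gene on the same strand, Gm43738, in the GENCODE M21 annotation, so how reads there were assigned could set its level; this was not tested. The efflux pumps Abca1 and Abcg1, and Mylip, a ubiquitin ligase that removes lipoprotein receptors, were at or near 0 in every library.

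**Figure D1:**
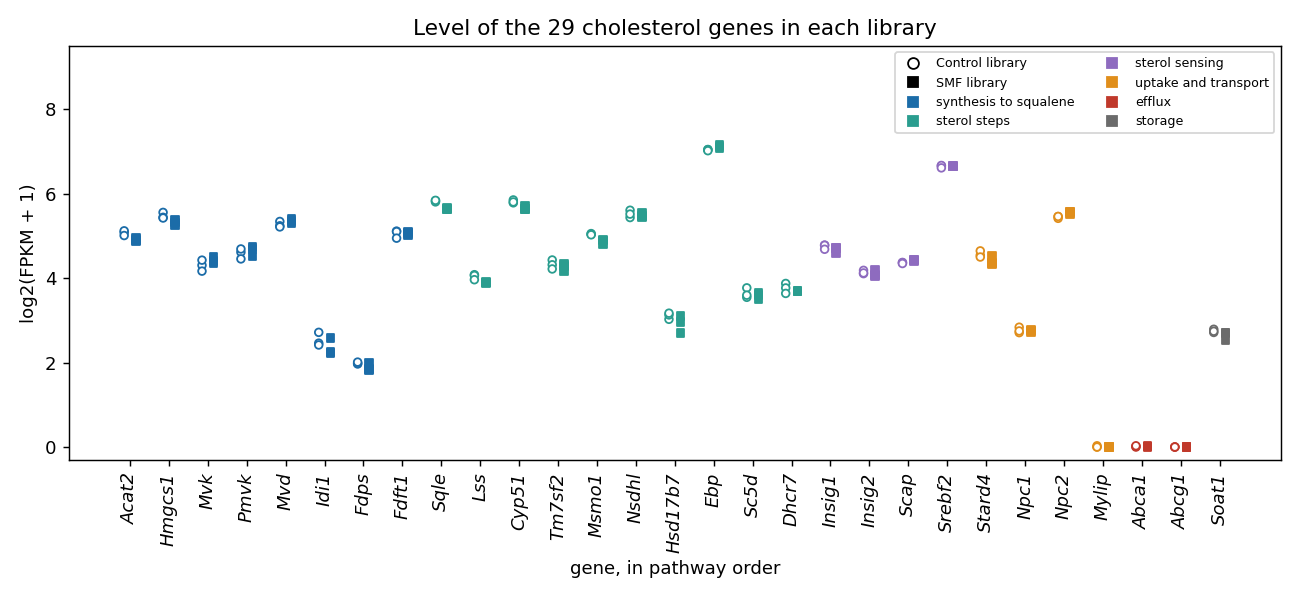
Level of each of the 29 genes in every library, as log2(FPKM + 1), in pathway order from the first enzyme to storage; open circles are Control libraries, filled squares are SMF libraries, and colour gives the role. Ebp and Srebf2 stand highest, Mylip, Abca1 and Abcg1 lie at or near 0, and within each gene the groups lie close together.

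Between SMF and Control libraries, no single gene of the 29, and none of the 11114 genes tested, passed limma on log2(FPKM + 1) at an adjusted p of 0.05. Of the 26 members that passed the filter on low values (at least 1 FPKM in at least 3 libraries), 18 had a difference below 0 and 8 above, with a median of -0.062 on the log2(FPKM + 1) scale against -0.0095 for all genes tested. Of all genes, 53.3% lay below 0. At an unadjusted p under 0.05, 7 members were lower and 2 higher, where 8.57% of all genes were lower and 9.41% higher. The 7 lower ones were Acat2, Hmgcs1, Sqle, Lss, Cyp51, Msmo1 and Stard4, and the 2 higher ones were Ebp and Npc2, a pair that reached no unadjusted p under 0.05 after rescaling to TPM or quantile normalization. The groups did not overlap in FPKM for 7 members that were lower in SMF libraries (Acat2, Hmgcs1, Sqle, Lss, Cyp51, Msmo1 and Soat1), 26.9% of the 26, against 12.7% of all genes tested, and for 3 that were higher (Ebp, Scap and Npc2), 11.5% against 11% of all genes.

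A fit to counts, limma-voom with the recovered reads as input, called 510 genes at an adjusted p of 0.05 (4.59%). Of these, 268 were lower in SMF libraries (2.41% of the genes tested) and 242 higher (2.18%). It called 3 members lower, Sqle, Cyp51 and Msmo1, and none higher; 18 of 26 had a difference below 0, against 53.2% of all genes. At an unadjusted p under 0.05 it had 8 members lower, where 12.1% of all genes were, and 2 higher, where 9.4% were. The 3 called enzymes are squalene epoxidase, the lanosterol demethylase, and the oxidase that starts the removal of a further pair of methyl groups from the ring. After correction for GC content and gene length, the same fit called 86 genes (0.778%, with 0.235% lower and 0.543% higher) and no member. The unadjusted p was then under 0.05 for 3 lower members, against 6.34% of all genes, and 1 higher, against 6.96%, and 19 of 26 members lay below 0, against 50.3%.

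**Figure D2:**
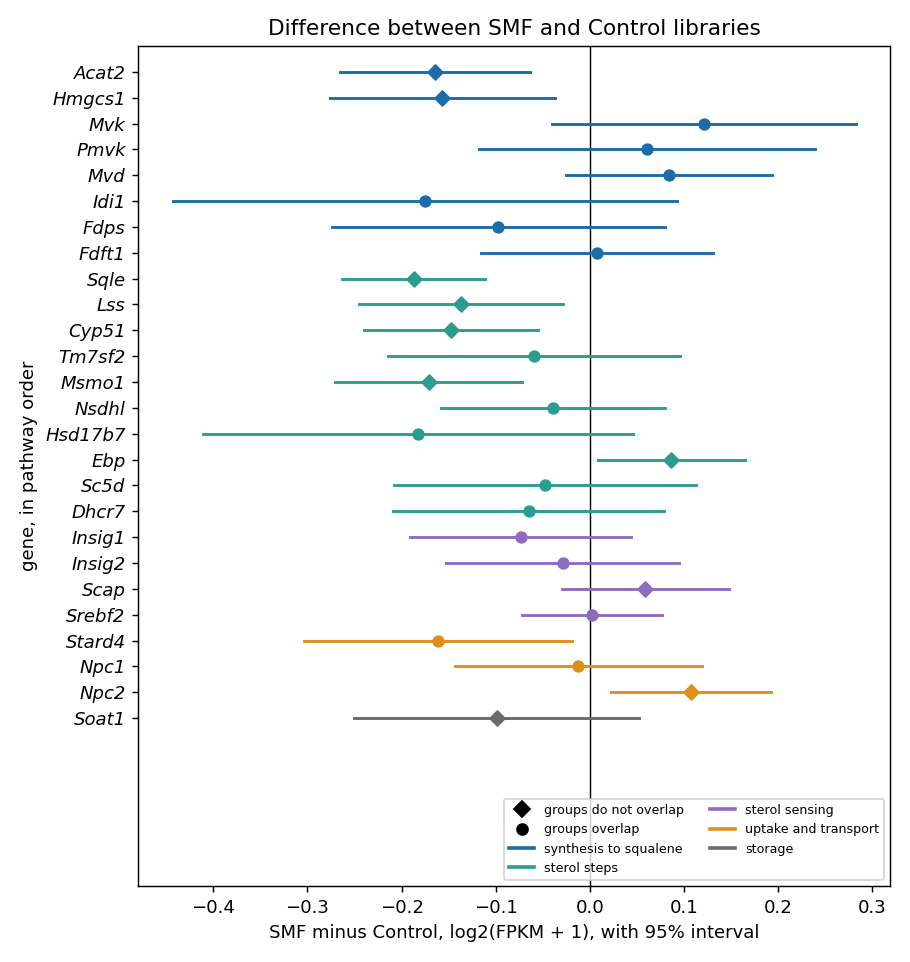
Difference between SMF and Control libraries for the 26 tested members on the log2(FPKM + 1) scale, with the 95% interval of limma, in pathway order; diamonds mark genes whose groups do not overlap. Acat2, Hmgcs1 and the early sterol enzymes lie below 0, Mvk, Pmvk and Mvd above 0 with intervals that cross it, and Ebp and Npc2 above 0.

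Along the steps to squalene the enzymes did not share a direction as deposited: 4 of 8 had a difference above 0 and 4 below. Their median was -0.045 and ranged from -0.066 to -0.023 with 1 library left out, nearest to 0 without Control 2. With the correction for GC content and length, Pmvk, Mvd and Fdft1 turned to -0.024, -0.025 and -0.0031. Mvk alone of these enzymes then stayed above 0, at 0.035, and their median was -0.053. Acat2 (ENSMUSG00000023832), the cytosolic thiolase that joins acetyl-CoA units, stood at 32.9, 33.8 and 31.2 FPKM in Control 2, 3 and 4 and at 28.3, 29.9 and 28.8 in SMF 1, 2 and 3. Every SMF library lay below every control, at -11.1% in the means (log2 difference -0.16 ± 0.04 SE, limma adjusted p = 0.164). Acat3, a paralogue that may share its reads, had the higher mean with the field, at 2.89 ± 0.698 FPKM without the field and 4.89 ± 1.56 under it (SD, n = 3), with overlapping groups. Scaled to library size, the summed reads of Acat2 and Acat3 were 92.7, 91.9 and 85.5 CPM without the field and 80.4, 92.0 and 84.4 under it, so that the groups overlapped in the sum.

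Hmgcs1 (ENSMUSG00000093930), the synthase that makes HMG-CoA and a textbook target of SREBP2, measured 46.1, 42.4 and 42.0 FPKM without the field and 38.8, 40.9 and 37.0 under it. The groups were separated by a narrow gap, between 42.0 in Control 4 and 40.9 in SMF 2. The difference was -0.16 ± 0.05 (SE, limma adjusted p = 0.204). With the correction for GC content and length it was -0.082, and there the groups overlapped.

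The 3 enzymes that carry mevalonate to isopentenyl diphosphate had means above their controls, with overlapping groups and no adjusted p under 0.05. Mvk, mevalonate kinase, was at 18.7 ± 1.78 FPKM without the field and 20.4 ± 1.07 under it, a difference of 0.12 with a 95% interval of -0.04 to 0.28. Pmvk, the next kinase, was at 23.1 ± 1.98 and 24.1 ± 2.07, and Mvd, the decarboxylase, at 37.5 ± 1.84 and 39.8 ± 1.42. These 3 genes are rich in G and C, at 58.45%, 55.5% and 59.1% against a median of 50.1% over all genes tested. With the correction their differences were 0.035, -0.024 and -0.025.

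Of the remaining enzymes before squalene, Idi1, the isomerase that balances the isoprenoid units, had the widest interval of the 26, from -0.44 to 0.09, on 201 to 324 reads per library. Fdps was at 2.96 ± 0.0617 FPKM without the field and 2.71 ± 0.245 under it. Fdft1, squalene synthase, was at 32.3 ± 2.1 and 32.4 ± 1.02, a difference of 0.0075 (95% interval -0.12 to 0.13). Fdft1 shares 18.3% of its exon bases with Ctsb on the opposite strand, and the libraries are not stated to mark strand; Ctsb, a lysosomal protease, was at 60.5 ± 1.26 FPKM without the field and 66.5 ± 0.931 under it, and its part in the level of Fdft1 was not tested.

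From squalene onward 9 of 10 enzymes had a difference below 0 as deposited, with a median of -0.10, and the exception was Ebp. With the correction for GC content and length Sc5d also lay above 0, at 0.027, and the median was -0.088. Sqle (ENSMUSG00000022351), squalene epoxidase, the first oxygen-dependent step and a point of control of the pathway, was at 56.0, 55.0 and 56.4 FPKM without the field and 48.6, 49.5 and 48.5 under it. The lowest control, 55.0, was well above the highest SMF library, 49.5, and the SMF mean stood at -12.4% relative to controls. Its difference was -0.19 ± 0.03 (SE), with limma adjusted p = 0.137, the lowest of any member, and adjusted p = 0.00938 by limma-voom. With the correction for GC content and length the difference was -0.15, and limma-voom gave an adjusted p of 0.0507.

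Lss, lanosterol synthase, which closes the ring, was at 15.9, 15.7 and 14.6 FPKM without the field and 14.1, 13.9 and 13.8 under it, a difference of -0.14 ± 0.05 (limma adjusted p = 0.21). Control 4 stood nearer to the SMF libraries than to the other controls. Cyp51 (ENSMUSG00000001467), the demethylase that acts on lanosterol, measured 56.8, 54.1 and 54.9 without the field and 48.9, 51.8 and 48.6 under it. Its difference was -0.15 ± 0.04, with adjusted p = 0.167 by limma and 0.0448 by limma-voom. Msmo1 (ENSMUSG00000031604), the methyl sterol oxidase, was at 32.2, 31.9 and 31.6 without the field and 26.8, 29.2 and 28.7 under it. For Msmo1 the difference was -0.17 ± 0.04, with adjusted p = 0.164 by limma and 0.0286 by limma-voom. After the correction the differences of Lss, Cyp51 and Msmo1 were -0.090, -0.098 and -0.087, and neither Cyp51 nor Msmo1 passed limma-voom (adjusted p = 0.286 and 0.449).

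Later sterol enzymes differed less, or varied more between libraries. Tm7sf2, the sterol reductase of the ring, was at 19.0 ± 1.48 FPKM without the field and 18.2 ± 1.18 under it; 12.1% of its exon bases lie in Vps51 on the same strand. Nsdhl, which works with Msmo1 in demethylation, was at 44.9 ± 2.76 and 43.7 ± 1.59, and its partner Hsd17b7 at 7.63 ± 0.441 and 6.65 ± 1.06. The spread of Hsd17b7 came with SMF 3, at 5.52 against 6.81 and 7.62 in SMF 1 and 2. Sc5d, the desaturase near the end of the pathway, was at 11.5 ± 1.03 and 11.04 ± 0.624, and Dhcr7, the final reductase of one branch, at 12.6 ± 1.11 and 11.95 ± 0.0612. The groups overlapped for all 5 of these genes.

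Ebp (ENSMUSG00000031168), the sterol isomerase, was the 1 synthesis enzyme with every SMF library above every control. It stood at 131, 131 and 129 FPKM without the field and 138, 135 and 142 under it. The difference was 0.087 ± 0.034 (SE, limma adjusted p = 0.245), and 0.075 after the correction, where the groups again did not overlap.

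**Figure D3:**
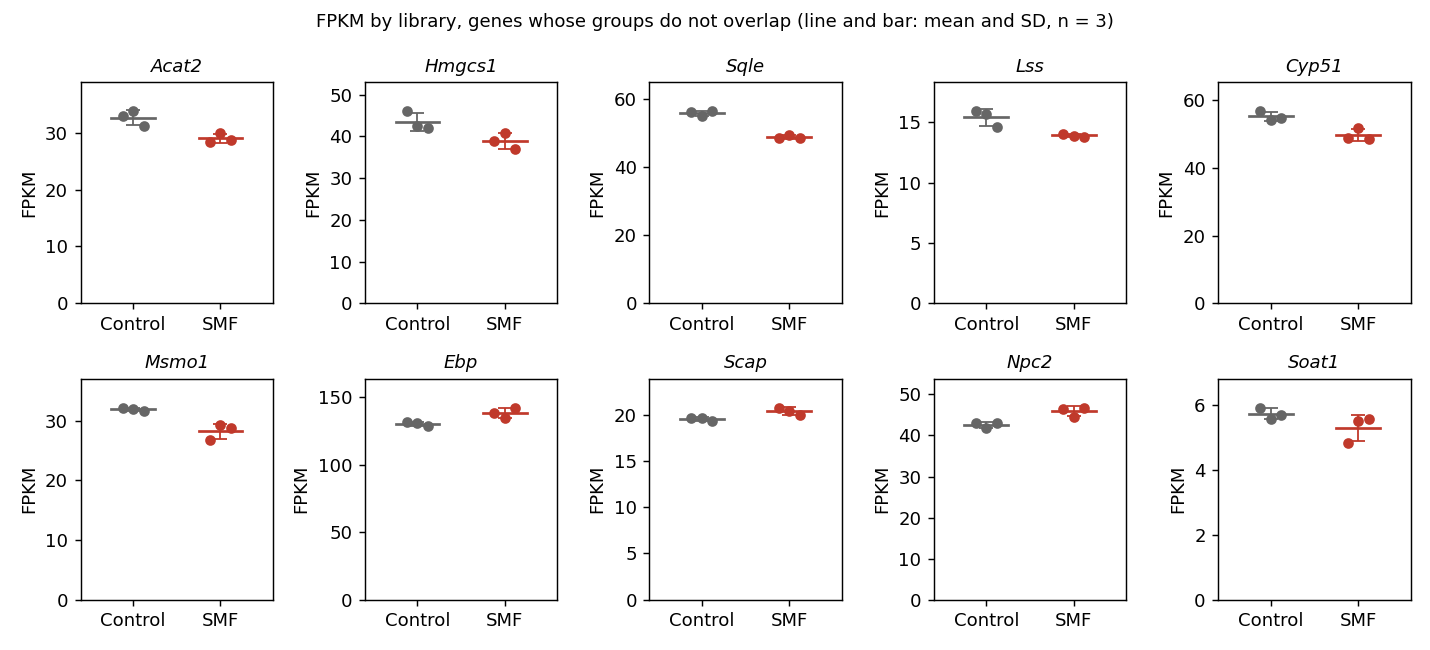
FPKM in each library for the 10 members whose groups did not overlap, with the mean and SD of each group (n = 3) and axes that start at 0. The 7 lower genes have SMF means at -12.4% to -7.66% relative to controls, and the 3 higher ones at +4.40% to +7.94%.

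Because these enzymes share SREBP2 as a regulator, their promoters are shown for 4 members: Hmgcs1, Cyp51 and Msmo1, lower in every SMF library, and Ebp, higher in every one. Each window runs from 250 bases before to 50 after the gene start in RefSeq (build GRCm38.p6), read in the direction of the gene. Capitals mark 2 motifs on either strand: TCACNCCAC, the core of a sterol response element, and CCAAT, the box of NF-Y, a factor that works beside SREBP2. The windows lie at chr13:119690101-119690400 (plus strand) for Hmgcs1, chr5:4104648-4104947 (minus) for Cyp51, chr8:64733529-64733828 (minus) for Msmo1 and chrX:8193463-8193762 (minus) for Ebp.
Hmgcs1: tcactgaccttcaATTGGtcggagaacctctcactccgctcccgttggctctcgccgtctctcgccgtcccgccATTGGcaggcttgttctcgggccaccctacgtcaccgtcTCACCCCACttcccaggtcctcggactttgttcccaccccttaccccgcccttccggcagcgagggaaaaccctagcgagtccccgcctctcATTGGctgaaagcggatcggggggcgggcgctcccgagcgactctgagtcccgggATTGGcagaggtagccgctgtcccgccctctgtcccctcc
Cyp51: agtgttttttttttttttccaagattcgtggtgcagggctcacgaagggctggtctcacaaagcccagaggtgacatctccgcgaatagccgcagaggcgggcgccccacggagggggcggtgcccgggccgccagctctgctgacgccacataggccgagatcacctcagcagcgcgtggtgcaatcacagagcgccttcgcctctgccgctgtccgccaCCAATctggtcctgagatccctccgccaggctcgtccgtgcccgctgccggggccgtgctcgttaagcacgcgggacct
Msmo1: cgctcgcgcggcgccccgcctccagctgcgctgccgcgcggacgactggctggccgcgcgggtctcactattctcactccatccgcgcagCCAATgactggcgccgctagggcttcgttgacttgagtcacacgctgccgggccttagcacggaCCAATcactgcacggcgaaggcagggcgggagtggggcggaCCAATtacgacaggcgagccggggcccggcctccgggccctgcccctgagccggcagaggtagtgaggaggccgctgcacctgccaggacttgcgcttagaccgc
Ebp: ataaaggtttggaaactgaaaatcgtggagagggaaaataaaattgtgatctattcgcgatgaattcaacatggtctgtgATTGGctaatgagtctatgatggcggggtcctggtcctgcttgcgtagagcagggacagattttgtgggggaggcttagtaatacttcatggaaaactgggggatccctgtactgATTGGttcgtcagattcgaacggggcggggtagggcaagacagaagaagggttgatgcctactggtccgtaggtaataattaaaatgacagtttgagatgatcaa

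Hmgcs1 held the sterol element core at bases 114 to 122 of its window and 4 NF-Y boxes, at bases 14, 75, 206 and 261. Cyp51, Msmo1 and Ebp had 1, 3 and 2 NF-Y boxes and no exact match to TCACNCCAC in these windows. Apart from the looser form below, sterol elements of other sequence were not searched, so a window without a match may still hold one. The table held windows for 23 of the 29 genes; Sqle, Fdps, Fdft1, Npc1, Stard4 and Abcg1 had none. An NF-Y box was found in 20 of these 23 (87.0%), and in 14 of the 15 synthesis enzymes with a window, against 43.8% of 8316 tested genes and 37.4% of all 32851 windows. The sterol element core was found in 1 of 23, Hmgcs1, against 1.42% of tested genes and 1.24% of all windows. Its looser form CACNCCAC, which contains part of the core, was found in Acat2, Hmgcs1 and Insig1, against 7.4% of tested genes and 6.24% of all windows. A GC box (GGGCGG) was in 22 of 23, against 71.1% of tested genes and 35.7% of all windows, and an E-box (CACGTG) in 6, against 12.1% and 7.15%. The direct repeat read by LXR, a DR4 element, was in no member's window and in 0.0152% of all windows. Genes on both sides of 0 carried the NF-Y box. These are matches of letters, and no binding was measured here.

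No gene of the sterol sensing machinery passed the test, and its differences were small against their intervals. Srebf2 was at 99.2 ± 2.11 FPKM without the field and 99.4 ± 0.478 under it, a difference of 0.0022 with a 95% interval of -0.072 to 0.077, on 11125 to 13169 reads per library. Scap, the escort of SREBP2, was at 19.7, 19.6 and 19.3 FPKM without the field and 20.8, 20.5 and 20.0 under it. All SMF libraries lay above the controls, with a difference of 0.059 ± 0.039 (SE) and limma adjusted p = 0.438. Insig1, which retains that escort and is itself induced by SREBP2, measured 26.5, 26.4 and 24.7 without the field and 25.2, 23.1 and 25.4 under it; the groups overlapped (difference -0.074 ± 0.051, limma adjusted p = 0.467). Insig2, which encodes the other INSIG protein, was at 16.6 ± 0.503 and 16.3 ± 1.03. Activity of SREBP2 depends on its cleavage, which RNA levels do not measure.

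Genes of uptake and intracellular transport did not share a direction. Npc2 (ENSMUSG00000021242), the soluble protein that takes cholesterol from lysosomal lipoproteins, was at 43.0, 41.7 and 43.0 FPKM without the field and 46.5, 44.6 and 46.8 under it. Every SMF library was above every control, by 7.94% in the means (difference 0.11 ± 0.04, limma adjusted p = 0.21; 0.13 after the correction). Npc1, the membrane protein that receives cholesterol from NPC2, was at 5.80 ± 0.31 and 5.74 ± 0.0864, a difference of -0.012 with an interval of -0.14 to 0.12. Stard4, a soluble sterol carrier and an SREBP2 target, measured 22.3, 24.03 and 21.6 without the field and 19.5, 21.9 and 19.1 under it. SMF 2 lay above the lowest control, and the difference of Stard4 was -0.16 ± 0.06 (limma adjusted p = 0.24; -0.091 after the correction). Mylip had 1 read in Control 2 and none in the other 5 libraries, where a count of 0 allows up to 3 reads, or 0.0510 to 0.0598 FPKM.

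Efflux could not be compared with synthesis among the members, because its genes Abca1 and Abcg1 were not detectable beyond a few reads. Abcg1 had no read in any library, which allows up to 0.0226 to 0.0265 FPKM per library, counting error only. Abca1 had 0, 1 and 4 reads in Control 2, 3 and 4 and 3, 1 and 0 in SMF 1, 2 and 3, or at most 0.02 FPKM. Other pumps of the ABC families, from the list of related genes, were split: Abcg5 and Abcg8, the canalicular sterol pump, lay between 0 and 0.05 FPKM, while Abca7 was at 10.6 ± 1.11 without the field and 11.8 ± 0.45 under it and Abca5 at 1.76 ± 0.236 and 1.57 ± 0.135. The LXR genes that control Abca1 and Abcg1 were expressed, with Nr1h2 at 41.9 ± 2.28 and 46.4 ± 3.76 and Nr1h3 at 19.0 ± 1.18 and 19.9 ± 0.784. Soat1, which stores cholesterol as esters, was at 5.91, 5.56 and 5.69 FPKM without the field and 4.81, 5.49 and 5.55 under it. The groups of Soat1 were separated by less than their spread, between 5.56 and 5.55, and the difference of -0.099 ± 0.066 (limma adjusted p = 0.446) was -0.0094 after the correction. Soat2, another SOAT gene from the list of related genes, was at 12.6 ± 0.868 FPKM without the field and 13.1 ± 1.07 under it. The groups of Soat2 overlapped. Its difference was 0.052 ± 0.071 (SE, limma adjusted p = 0.723), and -0.022 after the correction.

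Set side by side, the 18 synthesis enzymes had a median difference of -0.081, sensing genes -0.013, and the 3 tested genes of uptake and transport -0.012, against -0.0095 for all genes. By library, the median deviation of the synthesis enzymes from the control mean was 0.042, -0.0018 and -0.050 in Control 2, 3 and 4 and -0.091, -0.070 and -0.11 in SMF 1, 2 and 3. Control 2 was the highest and Control 4 lay close to SMF 2. Without Control 2 the median of the synthesis enzymes was at the upper end of its range over left-out libraries, -0.12 to -0.045. No p is given for these medians, since the genes were listed with earlier results known.

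The correction for GC content and gene length, made library by library, made the difference smaller in size for 20 of the 26 members and larger for 6. Of them, 7 changed sign, all of them genes with overlapping groups: Pmvk, Mvd, Fdft1, Sc5d, Insig2, Srebf2 and Npc1. After it, Acat2, Sqle, Cyp51 and Msmo1 were still below every control in every SMF library, 4 of 26 or 15.4%, against 8.64% of all genes, and Ebp, Scap and Npc2 were above (3 of 26, against 9.58%). The unadjusted p was under 0.05 for 4 lower and 2 higher members, where 5.92% and 6.48% of all genes were, and 19 of 26 lay below 0, against 49.9% of all genes. Acat2 and Npc2 had larger differences with the correction than without it, -0.19 and 0.13. The median of the synthesis enzymes was -0.084 with the correction, and 0.00033 for all genes. That of all 26 members moved from -0.062 to -0.040, and that of the 3 genes of uptake and transport turned from -0.012 to 0.063.

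**Figure D4:**
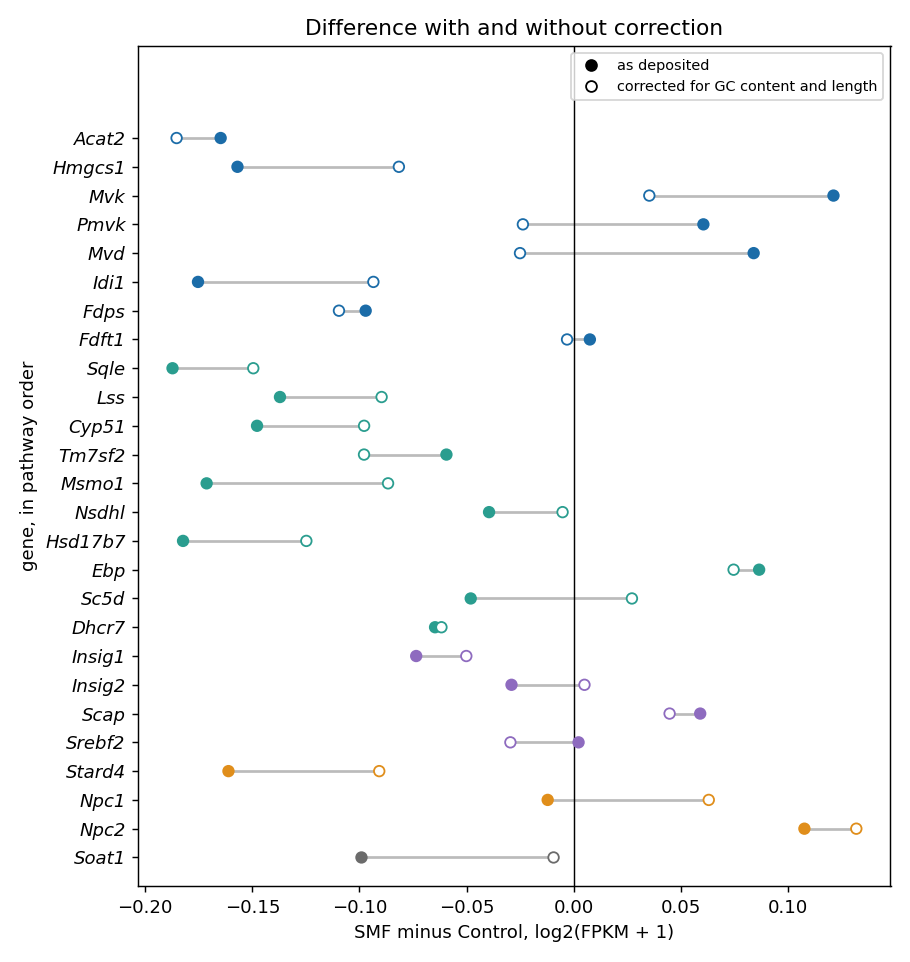
Difference between SMF and Control libraries on the log2(FPKM + 1) scale for the 26 tested members, as deposited (filled) and with GC content and gene length corrected library by library (open); colours give the roles as in the plot of levels. Sqle and Acat2 keep differences of -0.15 and -0.19, those of Mvk, Pmvk and Mvd move to 0.035, -0.024 and -0.025, and Msmo1 moves from -0.17 to -0.087.

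A wider list of 57 related genes, chosen by role with earlier results known, covers mevalonate branches, the proteolysis of SREBP, lipoprotein uptake, sterol transfer, bile acid formation and the fatty acid enzymes of SREBP1. Of these, 47 were tested; none passed limma at an adjusted p of 0.05, and 3 were lower and 3 higher at an unadjusted p under 0.05. That is 6.38% of the 47 in each direction, a smaller share than the 8.57% lower and 9.41% higher among all genes. Scd2, a stearoyl-CoA desaturase and the most abundant of them, was at 720, 672 and 686 FPKM without the field and 575, 625 and 638 under it. By limma-voom it was lower with an adjusted p of 0.0066, or 0.0154 with the correction, and by limma it did not pass (adjusted p = 0.164). Lbr, a sterol reductase of the nuclear envelope that does the same reaction as Tm7sf2, measured 16.9, 18.4 and 18.4 without the field and 15.4, 16.3 and 14.8 under it (difference -0.20 ± 0.05, adjusted p = 0.164 by limma, 0.0403 by limma-voom and 0.247 by limma-voom with the correction).

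The fatty acid desaturase Fads2 was at 204 ± 3.07 FPKM without the field and 192 ± 2.13 under it. Of the 11 genes of the SREBP1 programme, 10 had a difference below 0, where 53.3% of all genes did, with a median of -0.063; Srebf1 itself was at 67.6 ± 3.45 and 70.6 ± 1.96. With the correction for GC content and length that median was -0.023, the difference of Srebf1 went from 0.063 to -0.00094, and those of Acaca and Elovl6 lay above 0, at 0.014 and 0.055. Stard3 and Gramd1a, which move cholesterol between membranes, stood above every control: Stard3 at 29.2 ± 1.02 and 32.8 ± 0.98, and Gramd1a at 6.17 ± 0.20 and 7.08 ± 0.427. Fads2, Stard3 and Gramd1a did not pass by limma (adjusted p = 0.164 to 0.238). Cyp7a1 and Cyp8b1, enzymes of bile acid formation in hepatocytes, were listed at 0 in every library, while Cyp27a1 and Cyp39a1 were at 5.98 ± 1.13 and 14.8 ± 1.29 FPKM without the field and 6.86 ± 0.324 and 16.5 ± 1.27 under it.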

How the data were processed

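RNA of 6 AML12 libraries was captured on oligo(dT) beads, per the labels' protocols. The authors deposited FPKM per gene, 1 file per library; HISAT2 2.1.0, Bowtie2 2.2.3 and build GRCm39 are named in the submitters' processing notes, without roles. The sources used here do not give the annotation, the counting tool or the treatment of reads with several matches. Symbols (23521 of 23886), exon lengths and GC content came from GENCODE M21.

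With M21 lengths, the FPKM of 98.03% of 21748 genes came out as whole reads (tolerance 0.01 reads); for 684 genes the smallest length giving whole reads was used. These reads served limma-voom and the depths. The main test was limma 3.58.1 (R 4.3.3) with a variance trend, run on log2(FPKM + 1) for genes of at least 1 FPKM in at least 3 libraries (11114 genes), two-sided, with Benjamini-Hochberg adjustment. Differences are SMF minus Control on that scale, which understates changes of low genes. The correction removed a loess trend (span 0.3) in GC content and length from each library (99.5% of genes). In simulated data of 11114 genes, 200 were changed. There limma recovered 24% of genes changed 1.2-fold and 84% of those changed 1.5-fold, and limma-voom 52% and 92%. The simulation gave every gene the same dispersion between libraries and no trend in GC content or length. These shares are therefore not the share of real changes found in these libraries.

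Members and lists were chosen with earlier results of these data known. Values in every library are given for members whose groups did not overlap, those with an unadjusted p under 0.05, and the 2 with the smallest p in each role; related genes named by rule were the 6 with the smallest p among those without overlap and the most abundant, and others were named by role after their values were seen. Of the related genes chosen by rule, 1 is not reported here. Figures were drawn with matplotlib 3.10.9.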

Additional observations from a re-analysis of the deposited data

How the results depend on the processing

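No member passed limma under any of the planned settings on FPKM, and limma-voom called 3. Over all genes, 0 calls became 8 with a filter at 5 FPKM, 510 by limma-voom, 86 by limma-voom with the correction for GC content and length (a setting chosen after seeing the data) and 0 to 3 with 1 library left out; 1998 genes had an unadjusted p under 0.05. Related genes called were 2 of 47 by limma-voom (4.26%, against 4.59% of all genes) and 1 with the correction added (2.13%, against 0.778%). A replicate block on the shared numbers 2 and 3, in which Control 4 and SMF 1 carry no information on the difference, gave 19 calls over all genes, and 3 with the correction. Nothing in the labels says that equal numbers mark a pair, so the numbers are not taken as pairs. The correlation of same-numbered libraries was 0.0585 and 0.046, and that of differently numbered libraries ran from -0.148 to 0.107. With so few shared numbers these values cannot settle the pairing. With the replicate block, medians were -0.14 for sterol steps, -0.14 for all synthesis enzymes, -0.052 for sensing and -0.10 for all members; with block and correction they were -0.12 for synthesis, -0.049 for sensing, 0.037 for uptake and transport, 0.0067 for storage (Soat1, whose sign reversed) and -0.088 for all members. Higher members at an unadjusted p under 0.05 went from 2 to 0 with the block, under TPM, quantile normalization or block and correction, and to 1 with no variance trend or limma-voom with the correction; lower members went from 7 to 4 with the correction, 4 with block and correction, and 3 with limma-voom and the correction. Under TPM, medians were -0.14 for sterol steps, -0.13 for synthesis, -0.046 for uptake and transport and -0.098 for all members, where the median of all genes was -0.040. The filter at 5 FPKM, which removes Idi1 and Fdps, moved the steps to squalene to 0.034. With the correction, uptake and transport was at 0.063 and storage at -0.0094 (0.080 and -0.0030 by limma-voom). With 1 library left out, lower members numbered 4 (without SMF 3) to 9 (without SMF 2) and higher members 0 to 2; medians ranged from -0.14 to -0.061 for sterol steps, -0.12 to -0.045 for synthesis, -0.066 to -0.023 for the steps to squalene, -0.039 to 0.0036 for sensing, -0.13 to -0.044 for storage, -0.040 to 0.024 for uptake and transport and -0.094 to -0.026 for all members, where the values nearest 0 for sterol steps, synthesis, the steps to squalene and all members came without Control 2. The cause of these shifts was not tested. Medians near 0 also crossed it by less than the spread between libraries: sensing was at 0.0036 without Control 3 and 0.0020 without SMF 2, and uptake and transport at 0.0073 under quantile normalization. For Abca1, Abcg1 and Mylip, 3 reads correspond to 0.0159 to 0.0598 FPKM at these depths, and differences below that are not detectable.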
